A study of Homo sapiens with 8 samples.

Results

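Silencing of ZEB1 was examined in PC3-EMT1 and PC3-EMT14, a pair of mesenchymal prostate cancer lines. The experiment comprises 4 of the 8 arrays of the series, which are those of the transduced cells: PC3-EMT1-Scr and PC3-EMT14-Scr carry a lentiviral vector with a scrambled shRNA, and PC3-EMT1-sh4 and PC3-EMT14-sh4 carry the ZEB1 shRNA called sh4. Each value below is sh4 minus Scr within a line, or the mean of that difference over the 2 lines. The remaining 4 arrays hold PC3-Epi, an epithelial derivative of PC3 cells (1 array), and the untransduced lines PC3-EMT1, PC3-EMT12 and PC3-EMT14 (3 arrays). The EMT lines are cell populations isolated after PC3-Epi cells had been grown together with M2 macrophages, and PC3-Epi itself had been selected for a luciferase vector, so that all groups derive from luciferase-positive cells. A single ZEB1 shRNA was measured, each line was transduced with it, and no sample is described as a repeat culture, and p-values here therefore reflect no more than the scatter among arrays, which may be technical. The labels call the sh4 cells epithelial and the Scr cells mesenchymal.

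ZEB1 is a zinc finger transcription factor that binds E-boxes in DNA and recruits corepressors, and it is best known for switching off E-cadherin and other epithelial genes during the epithelial-mesenchymal transition (EMT). The microRNAs of the miR-200 family and the OVOL factors restrain ZEB1, and ZEB1 in turn represses both, so that the epithelial and the mesenchymal state each tend to hold themselves in place. The reverse passage is the mesenchymal-epithelial transition (MET), in which cells regain junctions and polarity.

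Levels are log2 values, on which a difference of 1 is a 2-fold change. The 41091 probe sets of the array that were annotated with 1 gene symbol gave 19775 genes, of which 16661 had at least 1 transduced array at log2 5 or above and were tested. The median log2 value of all probe sets lay between 6.19 and 6.23 on the 4 transduced arrays and between 4.33 and 4.35 on the untransduced ones, so the sets had been scaled apart and levels were read within a set. Bacterial control probe sets, which report background, reached at most 6.00 on the transduced arrays. Values near or under 6.00 therefore mark transcripts that may not have been detected, and a rise from such a value is measured against background.

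ZEB1 read 9.87 on the Scr array and 9.12 on the sh4 array of PC3-EMT1, and 10.08 and 9.01 on those of PC3-EMT14, so both sh4 arrays lay below both Scr arrays. It fell by 0.91 ± 0.15 on the log2 scale (SE, n = 2 lines, adjusted p = 0.0422), and both sh4 arrays still read above 9 on this probe set. A further ZEB1 probe set of high signal went from 8.77 to 8.08 and from 9.04 to 8.00, and the 2 dim ones were also lower in sh4 in both lines. Among the other 10 EMT transcription factors that were measured, 0 passed the test. TCF4, which encodes an E-box-binding protein, stood at -0.44, TWIST1 at 0.35 and SNAI2 (Slug) at 0.20. The listed cofactors of ZEB1, corepressors among them, did not pass either (0 of 12 rose and 0 fell, median -0.06). The acetyltransferase EP300, which is not a corepressor, was lowest at -0.54 and the demethylase KDM1A highest at 0.40.

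Across the 16661 genes, 196 passed the test at an adjusted p under 0.05, which is 1.18% of them. They comprised 115 genes that rose (0.690%) and 81 that fell (0.486%), and all 196 differed in the same direction in both lines. This test takes its error from 6 arrays, the 4 transduced ones and the untransduced PC3-EMT1 and PC3-EMT14. With the 4 transduced arrays alone, limma called 0 genes and the smallest adjusted p was 0.0512, with 2499 genes at an unadjusted p under 0.05. Leaving out the untransduced PC3-EMT1 or PC3-EMT14 array gives this same fit, because the array that remains in its group adds nothing to the error. The count moved widely when a Scr or sh4 array was left out, which leaves 1 array in that group. After median centring 139 genes rose and 151 fell. "Rose" and "fell" below refer to the 6-array test.

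A second rule, which needs no error estimate, asked for a difference of at least 2-fold in each line. It gave 46 genes with more transcript in sh4 (0.276% of those tested) and 22 with less (0.132%), and 43 and 17 of them also passed the test. The 8 others were S100A14, EHF and LCK (higher) and SPARC, TCN1, CSGALNACT1, PLEKHH2 and KRT20 (lower). Differences were somewhat wider in PC3-EMT14 (SD over genes 0.365) than in PC3-EMT1 (0.296), and 187 genes were 2-fold higher and 136 lower in PC3-EMT14, against 68 and 71 in PC3-EMT1. Over all genes tested, the differences of the 2 lines correlated with a Pearson r of 0.504. This is a description across genes, which are not independent and were measured on the same 4 arrays. No gene differed 2-fold or more in opposite directions in the 2 lines.

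**Figure D1:**
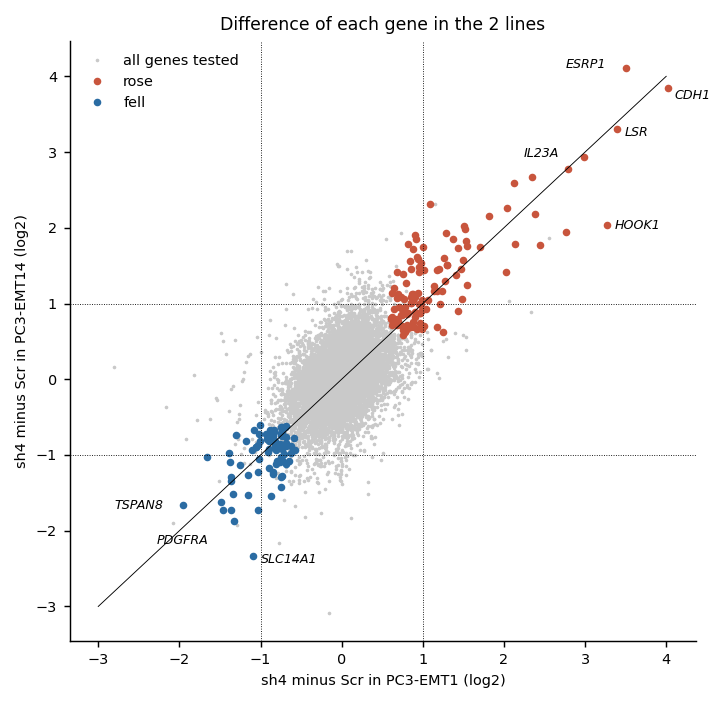
The log2 difference sh4 minus Scr of each gene tested, with PC3-EMT1 on the x axis and PC3-EMT14 on the y axis; orange points rose, blue points fell, grey points did not pass, dotted lines mark 2-fold and the solid line marks equality. The 115 genes that rose lie in the upper right and reach CDH1 at 4.02 and 3.85, and the 81 that fell lie in the lower left.

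The largest rise was that of CDH1, the gene of E-cadherin, the cadherin that holds epithelial cells together. It read 5.61 on the Scr array and 9.63 on the sh4 array of PC3-EMT1, and 5.89 and 9.75 on those of PC3-EMT14, a 15.3-fold difference over a Scr level within the range of the bacterial controls (3.94 ± 0.19, adjusted p = 0.000526). A dimmer CDH1 probe set stood at 0.04. CDH3, the gene of P-cadherin, started well above that range, at 7.09 and 7.33 in Scr, and reached 9.88 and 10.10 in sh4 (2.78 ± 0.14). Both sh4 arrays lay above both Scr arrays for either cadherin. The cytoplasmic partners of the cadherins did not move with them: of 10 measured adherens junction genes CDH1 and CDH3 were the 2 that rose, while β-catenin (CTNNB1, 0.25), plakoglobin (JUP, 0.19) and vinculin (VCL, 0.02) did not pass, and the list median was 0.16 against 0.02 over all genes.

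The junctional membrane proteins showed a similar division. Of 14 listed and measured genes of tight and tricellular junctions, 4 rose, 0 fell and 10 did not pass (median 0.23). Outside the list, CLDN11 (1.31) and ILDR1 (1.41) rose too. LSR, the receptor that recruits tricellulin to the corners where 3 cells meet, went from 5.58 to 8.97 and from 6.06 to 9.37 (3.35 ± 0.12, adjusted p = 0.000127), the smallest adjusted p of all genes tested. MARVELD2, which encodes tricellulin itself, rose from 8.01 to 8.96 and from 7.56 to 8.98 (1.18 ± 0.16). The strand proteins claudin 7 (CLDN7, 1.20 ± 0.12) and occludin (OCLN, 0.82 ± 0.12) rose as well, whereas CLDN4 (-0.06) and the scaffold TJP1 (0.35) did not pass. CLDN1 moved in opposite directions, down from 8.79 to 8.19 in PC3-EMT1 but up from 6.77 to 7.90 in PC3-EMT14.

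In desmosomes, which anchor intermediate filaments, 2 of 12 measured genes rose. They were desmoplakin (DSP), from 9.62 to 10.50 and from 9.49 to 10.53 (0.96 ± 0.16), and plakophilin 3 (PKP3, 0.85 ± 0.14). The desmosomal cadherins did not pass, with DSG2 at 0.32, DSC2 at -0.34 and DSC3 at -0.68. Of 14 genes of the polarity complexes 0 passed, although 10 of them were higher in both lines, a pattern that 35.1% of all genes showed. CRB3, the crumbs protein of the apical membrane, stood at 0.84 and PATJ, its scaffold, at 0.83, while PARD3 stood at 0.31 and SCRIB at 0.00.

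**Figure D2:**
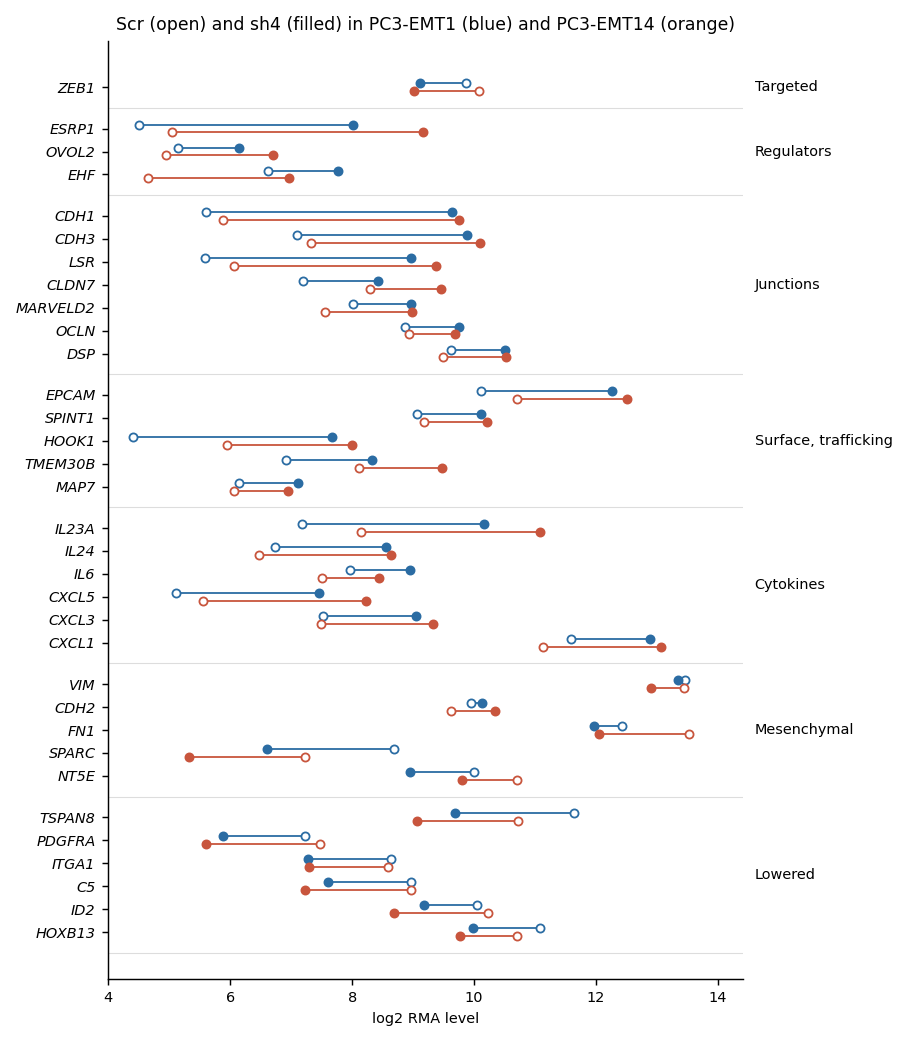
Log2 level (x axis) of 33 genes grouped by role (y axis) on the 4 transduced arrays; open symbols are Scr and filled symbols sh4, with PC3-EMT1 in blue and PC3-EMT14 in orange, and each line joins the pair of arrays of 1 cell line. CDH1, ESRP1 and LSR start near 5 or 6 and end near 8 or above, whereas ZEB1 and VIM move by less than 2-fold or only just past it.

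Regulators of the epithelial state responded unevenly, with 4 of 10 measured ones that rose and a median of 0.54. ESRP1, which directs epithelial patterns of RNA splicing, went from 4.51 to 8.02 and from 5.05 to 9.16 (3.81 ± 0.19, adjusted p = 0.000526). OVOL2, a zinc finger repressor of ZEB1, went from 5.15 to 6.15 and from 4.95 to 6.70 (1.37 ± 0.18), so that it ended near the highest bacterial control. RBM47, an RNA-binding protein (0.71 ± 0.12), and ANKRD22 (0.79 ± 0.13) rose too, although the mean of the 5 probe sets of RBM47 was 0.26 (adjusted p = 0.239). The ETS factor EHF was 1.15 and 2.32 higher in the lines without passing (adjusted p = 0.101). OVOL2, EHF and ANKRD22 were singled out by the study on these same arrays, so their direction is not independent evidence. Other epithelial factors did not pass: OVOL1 (0.37, near background), ELF3 (0.23), KLF5 (-0.01), GRHL1 (-0.22) and FOXA1 (-0.24). The study reported that OVOL1 missed its array threshold but was highly upregulated by qPCR after ZEB1 silencing.

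Surface proteins and their proteases followed the cadherins in part. EPCAM, an adhesion molecule of carcinomas, rose from 10.12 to 12.26 and from 10.71 to 12.50 (1.97 ± 0.13, adjusted p = 0.00212), entirely above background. SPINT1, the inhibitor of the membrane protease matriptase, rose from 9.06 to 10.12 and from 9.17 to 10.21 (1.05 ± 0.13), and its target protease ST14 stood at 0.86 (adjusted p = 0.0596). These were the 2 of 14 measured members that passed (median 0.37), and the mucin-like protein CD24 (-0.12) was among those that did not. Of 12 measured keratins 1 passed, KRT7, from 11.30 to 12.29 and from 11.02 to 12.55 (1.26 ± 0.18), but the mean of its 4 probe sets was 0.41 (adjusted p = 0.127). KRT8 (0.66) and KRT18 (0.53), the pair that forms filaments in simple epithelia, did not pass, and KRT19 stood at 0.03.

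Of all epithelial lists, trafficking and microtubule linkers held the most risen genes, 5 of 17 with a median of 0.52, and 12 of the 17 were higher in both lines. HOOK1, which links cargo to microtubule motors, went from 4.40 to 7.67 and from 5.95 to 7.99 (2.65 ± 0.33). CDS1, an enzyme that makes CDP-diacylglycerol for phosphoinositides, went from 6.69 to 8.21 and from 6.29 to 8.27 (1.75 ± 0.14). TMEM30B, a subunit of lipid flippases, went from 6.91 to 8.32 and from 8.11 to 9.48 (1.39 ± 0.15), but its other probe set stood at 0.06. BSPRY (1.31 ± 0.13) and the microtubule-associated protein MAP7 (0.92 ± 0.12) completed the 5. The small GTPase RAB25, which serves recycling endosomes, stood at 0.28 and remained near background on all 4 arrays (5.06 to 5.62).

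Secreted and calcium-binding proteins followed. SLPI, an antiprotease of mucosal secretions, rose from 9.16 to 10.87 and from 9.32 to 11.07 (1.73 ± 0.15). CALB1, the calcium buffer calbindin, rose from 4.55 to 7.31 and from 6.76 to 8.71 (2.35 ± 0.33), and the siderophore-binding lipocalin LCN2 rose by 1.20 ± 0.17. S100A14 stood at 1.54 (adjusted p = 0.0551), while S100A4, a calcium-binding protein linked with mesenchymal cells, stood at -0.06 and S100A6 at -0.07. In all, 3 of 14 members of this list rose, 0 fell and the median was 0.06.

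**Figure D3:**
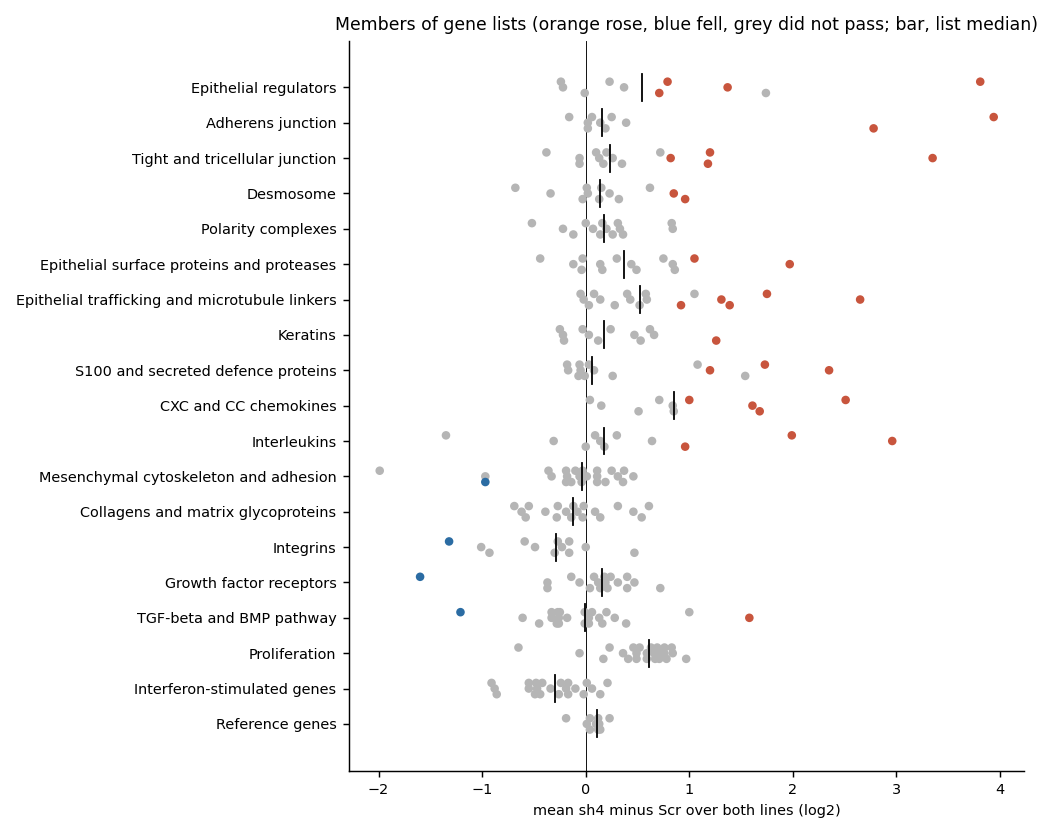
Mean log2 difference sh4 minus Scr over both lines (x axis) for each measured member of 19 gene lists (y axis); orange points rose, blue points fell, grey points did not pass, and the black bar is the list median. Most lists hold a few large rises beside many members near 0, and the proliferation list alone among those drawn has a median above 0.5 with 0 members that passed.

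ZEB1 is known to bind the E-box CAGGTG, which reads CACCTG on the other strand. Promoters of a few genes are shown because their genes moved in both lines and because they differ in this word. The windows are the 250 bases before a start site of RefSeq (build GRCh38.p14), written 5′ to 3′ on the strand of the gene, with each CAGGTG or CACCTG in capitals. TMEM30B (chr14:61281339-61281588, minus strand), FA2H (chr16:74774821-74775070, minus strand), KDF1 (chr1:26960469-26960718, minus strand), CDS1 (chr4:84582877-84583126, plus strand), HOOK1 (chr1:59814699-59814948, plus strand) and IL23A (chr12:56338634-56338883, plus strand) rose and hold it, LSR (chr19:35248752-35249001, plus strand) rose without it in this window, and ITGA1 (chr5:52787666-52787915, plus strand) fell.
TMEM30B: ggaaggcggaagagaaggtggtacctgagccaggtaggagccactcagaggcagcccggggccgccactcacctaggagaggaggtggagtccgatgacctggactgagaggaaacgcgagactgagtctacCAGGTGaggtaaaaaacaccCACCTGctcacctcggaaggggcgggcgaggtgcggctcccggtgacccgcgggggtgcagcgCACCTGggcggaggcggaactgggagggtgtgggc
FA2H: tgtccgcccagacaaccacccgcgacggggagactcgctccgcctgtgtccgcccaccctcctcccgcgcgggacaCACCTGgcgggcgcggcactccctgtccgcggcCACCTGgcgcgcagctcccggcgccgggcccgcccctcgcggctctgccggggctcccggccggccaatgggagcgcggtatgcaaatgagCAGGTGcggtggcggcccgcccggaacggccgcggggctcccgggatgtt
KDF1: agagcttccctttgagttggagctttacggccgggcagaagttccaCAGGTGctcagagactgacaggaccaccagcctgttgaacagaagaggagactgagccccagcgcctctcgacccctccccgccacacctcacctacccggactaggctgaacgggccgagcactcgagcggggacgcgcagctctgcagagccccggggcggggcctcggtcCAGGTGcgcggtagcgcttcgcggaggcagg
CDS1: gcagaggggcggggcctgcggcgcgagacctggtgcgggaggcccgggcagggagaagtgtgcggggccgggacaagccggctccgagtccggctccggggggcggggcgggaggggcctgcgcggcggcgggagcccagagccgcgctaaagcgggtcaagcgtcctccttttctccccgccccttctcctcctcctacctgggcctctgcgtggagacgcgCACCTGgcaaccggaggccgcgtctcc
HOOK1: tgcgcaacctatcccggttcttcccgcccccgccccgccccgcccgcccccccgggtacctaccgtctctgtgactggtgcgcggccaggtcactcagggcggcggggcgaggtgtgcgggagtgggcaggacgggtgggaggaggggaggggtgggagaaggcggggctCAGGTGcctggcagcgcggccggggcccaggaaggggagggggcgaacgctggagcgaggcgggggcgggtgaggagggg
IL23A: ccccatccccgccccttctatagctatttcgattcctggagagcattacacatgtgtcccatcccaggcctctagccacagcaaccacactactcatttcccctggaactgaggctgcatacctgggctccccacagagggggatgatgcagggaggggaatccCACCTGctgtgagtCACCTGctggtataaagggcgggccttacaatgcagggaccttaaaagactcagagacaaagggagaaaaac
LSR: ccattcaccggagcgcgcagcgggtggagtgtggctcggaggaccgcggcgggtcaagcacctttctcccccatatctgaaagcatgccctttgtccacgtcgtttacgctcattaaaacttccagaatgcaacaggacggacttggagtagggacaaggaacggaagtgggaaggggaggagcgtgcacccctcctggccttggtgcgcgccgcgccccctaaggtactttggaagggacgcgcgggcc
ITGA1: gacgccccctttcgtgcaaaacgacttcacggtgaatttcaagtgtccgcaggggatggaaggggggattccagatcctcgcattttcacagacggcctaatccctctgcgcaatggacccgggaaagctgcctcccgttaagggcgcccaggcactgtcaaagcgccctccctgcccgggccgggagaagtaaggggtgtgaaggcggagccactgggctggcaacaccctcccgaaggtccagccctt

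TMEM30B and FA2H each show 3 such words in these bases, KDF1 and IL23A 2 and CDS1 and HOOK1 1. FA2H, a fatty acid hydroxylase, rose from 6.99 to 8.53 and from 6.99 to 8.24 (1.39 ± 0.18). KDF1, a regulator of keratinocyte differentiation, rose from 5.35 to 6.84 and from 5.66 to 7.24 (1.54 ± 0.12). The search was then extended to the 300-base window of the table, 250 bases before the start and 50 after, at the start of each gene that lies furthest 5′. Of the 115 risen genes 87 had such a window, and 38 of these (43.7%) held the word on either strand. The share was 14.5% of the 69 fallen genes with a window, 19.5% of the 13128 tested genes with a window and 20.6% of all 27305 genes of the table. Several copies were found in 19 of the 87 risen genes (21.8%), in 0 of the 69 fallen ones and in 3.03% of the tested genes. The related E-box CAGCTG, which is its own reverse complement and shares no hexamer with the searched words, was held by 11.5% of the risen genes and 17.5% of the tested ones. Where any start of a gene counted, the shares were 54.0%, 23.2% and 24.8% for risen, fallen and tested genes. The median G+C content of the windows was 67.3% for risen, 60.7% for fallen and 64.0% for tested genes, and its part in these shares was not tested. Windows of CDH1, CDH3, EPCAM and ESRP1 were not analysed here. A match is a description of the letters and no evidence of binding.

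Several inflammatory ligands rose. Chemokines draw leukocytes, and CXCL1, CXCL2, CXCL3, CXCL5, CXCL6 and CXCL8 share a receptor on neutrophils. Of 10 measured chemokines 4 rose and 0 fell, 9 were higher in both lines, and the median was 0.85, the highest of the 33 lists. CXCL1 rose from 11.59 to 12.88 and from 11.13 to 13.06 (1.61 ± 0.18), CXCL3 from 7.52 to 9.04 and from 7.49 to 9.32 (1.68 ± 0.14) and CXCL2 from 9.19 to 10.06 and from 8.80 to 9.92 (1.00 ± 0.13). CXCL5 rose by 2.51 ± 0.19 from a Scr level of 5.11 and 5.56, near background, and its other probe sets stood at 0.31 and 0.40. CXCL6 (0.85), CXCL16 (0.84) and CXCL8, which encodes interleukin 8 (0.71, adjusted p = 0.0781), did not pass.

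Interleukins divided. IL23A, the p19 subunit of interleukin 23, went from 7.17 to 10.16 and from 8.14 to 11.08 (2.96 ± 0.17, adjusted p = 0.00103), but its 3 other probe sets stood between -0.18 and 0.00. IL24, a cytokine of the interleukin 10 family, rose from 6.73 to 8.56 and from 6.48 to 8.63 (1.99 ± 0.32, and adjusted p = 0.056 when the mean of probe sets was used for all genes). IL6, a driver of STAT3 signalling, rose from 7.96 to 8.95 and from 7.51 to 8.44 (0.96 ± 0.14). IL1B stood above 13 on all 4 arrays with a difference of 0.00, LIF at 0.30 and the nuclear alarmin IL33 at -1.35 without passing, so that 3 of 11 rose (median 0.18). Among 12 NF-κB subunits and feedback genes, the inhibitor TNFAIP3 (A20) rose by 0.93 ± 0.15, NFKBIA stood at 0.64 (adjusted p = 0.0663) and the subunit RELA (0.16) did not pass.

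Few mesenchymal genes passed the test. Of 23 measured genes of the mesenchymal cytoskeleton and adhesion, 1 fell and 0 rose, with a median of -0.04. The 1 was NT5E, the ectonucleotidase CD73, from 9.99 to 8.94 and from 10.70 to 9.80 (-0.97 ± 0.12). Vimentin (VIM) went from 13.46 to 13.34 and from 13.44 to 12.90, N-cadherin (CDH2) from 9.94 to 10.13 and from 9.62 to 10.34, and neither passed. SPARC, a matricellular glycoprotein, went from 8.69 to 6.61 and from 7.23 to 5.33, a 2-fold fall in both lines by size but with an adjusted p = 0.0596 and Scr levels that differed between the lines by more than 1 on the log2 scale. Fibronectin (FN1) went from 12.42 to 11.97 and from 13.53 to 12.05 (adjusted p = 0.124), while S100A4, CALD1 (-0.19), TAGLN (0.25) and ACTA2 (0.11) lay near 0.

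The listed matrix and matrix-remodelling genes did not pass in either direction. Outside the lists, the matrix glycoprotein EFEMP1 rose (1.29 ± 0.13). NPNT passed as well (1.27 ± 0.19), from 4.29 to 5.22 and from 3.51 to 5.13. Each of these values lies under the highest bacterial control, and only the sh4 arrays brought NPNT past the filter at log2 5. Its rise may therefore lie within background. The lists held 19 collagens and matrix glycoproteins (0 rose, 0 fell, median -0.12) and 17 metalloproteases, plasminogen activators and inhibitors (0 rose, 0 fell, median -0.07). Members that did not pass included fibrillin (FBN1, -0.69), the basement membrane collagen COL4A2 (-0.62), versican (VCAN, 0.61) and urokinase (PLAU, 0.64, adjusted p = 0.0543). Integrins stood lower on balance, with 9 of 12 lower in both lines (28.7% of all genes were) and a median of -0.29. Only ITGA1, the collagen-binding α1 subunit, passed among them, from 8.63 to 7.27 and from 8.59 to 7.30 (-1.32 ± 0.12, adjusted p = 0.00533), with its other probe sets at -1.88 and -1.02. ITGB8 (-1.01), ITGB3 (-0.93) and ITGB5 (-0.59) did not pass, and the hemidesmosome subunit ITGB4 stood at 0.47.

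Other genes that fell are given one by one. TSPAN8, a tetraspanin that the study named from these arrays, went from 11.63 to 9.68 and from 10.72 to 9.06 (-1.81 ± 0.23), and 0 of the 14 other tetraspanins passed. PDGFRA, a receptor for platelet-derived growth factor, went from 7.23 to 5.89 and from 7.48 to 5.61 (-1.60 ± 0.20), on 1 of 4 probe sets. It was the 1 of 18 listed and measured growth factor receptors that passed, with EGFR at 0.72. The receptor tyrosine kinases KDR, EPHA4 and EPHA5, which are outside that list, fell too. Complement component C5 went from 8.97 to 7.61 and from 8.96 to 7.23 (-1.55 ± 0.13), whereas C3, which stands upstream of it in the cascade, rose from 6.85 to 8.04 and from 7.31 to 8.75 (1.32 ± 0.20). Annexin ANXA10 (-1.55 ± 0.20), the GABA transaminase ABAT (-1.59 ± 0.16), the muscarinic receptor CHRM3 (-1.23 ± 0.17), the lysophosphatidic acid receptor LPAR3 (-1.19 ± 0.15) and the sestrin SESN3 (-1.35 ± 0.15) also fell 2-fold in both lines. SESN3 is the brightest of 7 probe sets, and the others stood between -0.48 and 0.14.

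Among single genes outside the lists, PLA2G4A, the cytosolic phospholipase that frees arachidonic acid, went from 9.10 to 7.44 and from 8.23 to 7.20 (-1.34 ± 0.17), and HPGD, which inactivates prostaglandins, went from 12.33 to 11.31 and from 12.84 to 11.79 (-1.03 ± 0.18). ELOVL7, a fatty acid elongase, rose from 3.83 to 5.86 and from 4.77 to 6.17 (1.72 ± 0.19), a range that lies near background. PTAFR, the receptor for platelet-activating factor, rose from 7.11 to 8.58 and from 7.30 to 8.75 (1.46 ± 0.11). Further rises of 2-fold or more in both lines were those of the cation channel MCOLN3 (2.28 ± 0.19), the cornified envelope protein sciellin (SCEL, 2.10 ± 0.21), the axonal adhesion protein CNTNAP2 (1.77 ± 0.15), junctophilin JPH1 (1.70 ± 0.25), COXFA4L3 (2.36 ± 0.24) and C1orf116 (2.15 ± 0.18).

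The TGF-β pathway, a well-known inducer of EMT, held 1 rise and 1 fall among 23 listed and measured genes (median -0.01). The type I receptor ACVR1, which is outside that list, fell as well (-0.88). The ligand TGFB2 rose from 6.18 to 7.61 and from 5.70 to 7.43 (1.58 ± 0.21), with its other probe sets between 0.01 and 1.08. ID2, an inhibitor of basic helix-loop-helix factors, fell from 10.05 to 9.18 and from 10.22 to 8.68 (-1.21 ± 0.19). The activin subunit INHBA stood at 1.00 (adjusted p = 0.0587), the ligand TGFB1 at -0.33 and the receptor TGFBR2 at 0.13. Of 17 Wnt and 11 Notch pathway genes 0 passed (medians -0.13 and 0.02). Among 10 prostate lineage genes, HOXB13, a homeodomain factor of the prostate, fell from 11.08 to 9.98 and from 10.71 to 9.77 (-1.02 ± 0.12), the 1 that passed. Of 13 macrophage markers measured 0 passed (range of differences -0.28 to 0.30), with CD14 between 5.21 and 5.57 and CSF1R between 6.71 and 6.79 on the 4 arrays. The 10 reference genes had a median of 0.11 and a range of -0.19 to 0.23, and 0 of 11 genes of the RNA interference machinery passed.

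The response of some programs differed between the lines. Of 24 measured proliferation genes 0 passed, yet their median difference was 0.61, with 0.26 in PC3-EMT1 and 1.03 in PC3-EMT14. The proliferation antigen MKI67 went from 9.65 to 10.24 (PC3-EMT1) and from 9.06 to 10.42 (the other line), and cyclin A2 (CCNA2) from 9.06 to 9.18 and from 8.14 to 9.53. In PC3-EMT14, 13 of the 24 were 2-fold or more higher, and in PC3-EMT1 0 were. PC3-EMT14-Scr was the lowest of the 4 arrays for 22 of the 24 genes. The untransduced PC3-EMT1 array lay above PC3-EMT14 for 14 of the 24, by a median of 0.06. Between the Scr arrays this median was 0.63, and between the sh4 arrays it was -0.18. The list also holds the cell cycle inhibitor CDKN1A (p21), its 1 member that was lower in both lines, from 9.87 to 9.09 and from 9.99 to 9.49.

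Interferon-stimulated genes showed a different pattern, with 0 of 22 past the test and medians of -0.73 in PC3-EMT1 and 0.24 in PC3-EMT14. The antiviral GTPase MX1 went from 9.77 to 8.34 (PC3-EMT1) and from 7.27 to 7.60 (the other line), the oligoadenylate synthetase OAS1 from 8.70 to 7.21 and from 5.62 to 6.23, and IFI44L from 8.47 to 6.65 and from 6.67 to 6.73. PC3-EMT1-Scr was the highest of the 4 arrays for 20 of the 22 genes, and 8 were 2-fold or more lower in PC3-EMT1-sh4. The untransduced PC3-EMT1 array also lay above PC3-EMT14 for 21 of the 22, by a median of 0.74, against 1.51 between the Scr arrays and 0.51 between the sh4 arrays. Each of these sentences rests on single arrays, and the difference between the lines was not tested.

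**Figure D4:**
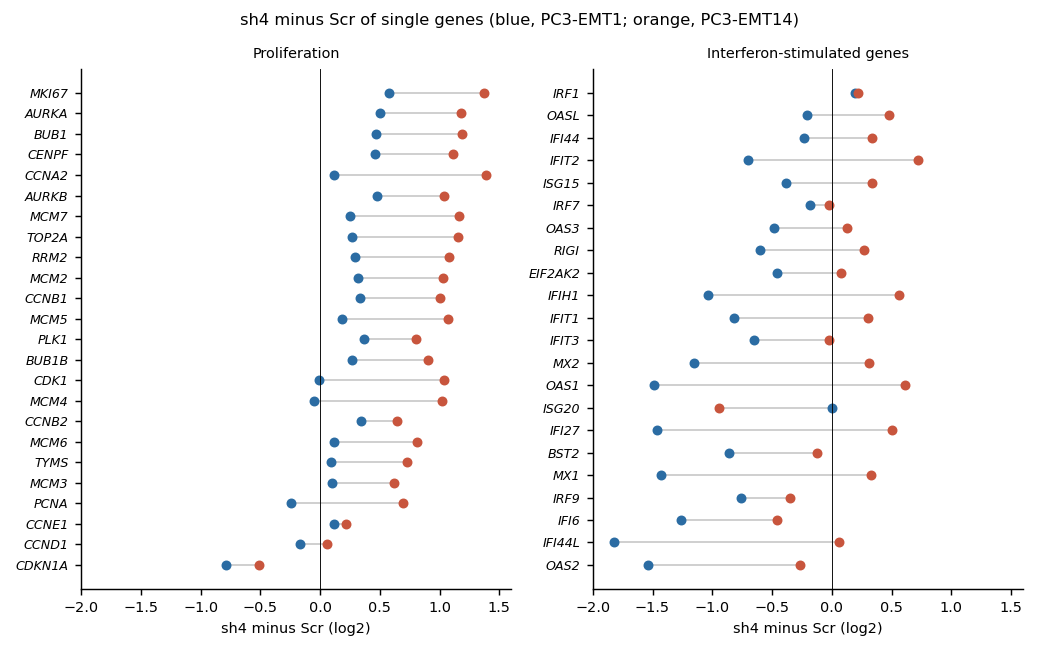
Log2 difference sh4 minus Scr (x axis) of the 24 genes of the proliferation list, which includes the inhibitor CDKN1A, and 22 interferon-stimulated genes (y axes), with PC3-EMT1 in blue and PC3-EMT14 in orange. For proliferation the orange point lies to the right of the blue one in all 24 genes, with medians of 0.26 and 1.03, and for interferon it does so in 21 of 22, with medians of -0.73 and 0.24.

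To ask how far the silenced cells moved back along the path taken in EMT, the sh4 differences were set beside those of the untransduced EMT lines against PC3-Epi, a comparison with no array in common. Of 11907 genes with at least 1 transduced and at least 1 untransduced array at log2 5 or above, 572 (4.80%) were 2-fold or more lower in all 3 EMT lines and 352 (2.96%) were higher. The sets had been scaled apart, so sizes are compared only roughly between them. Of the 572 lower genes, 38 moved back 2-fold or more in both lines, 1 moved further, 350 stayed within 1.5-fold in both lines and 183 fell between these limits. Of the 352 higher genes, 8 moved back, 1 moved further, 211 stayed and 132 fell between. The shares that stayed, 61.2% and 59.9%, were below the 88.9% among the 10983 genes in neither class. Thus 38 of the 46 genes that were 2-fold higher in both lines had been lowered in EMT (6.64% of the lower genes, against 0.386% of the 11907).

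The same contrast held for the tested genes. Among the 572 lower genes 67 rose (11.7%) and 2 fell, where 0.890% of the 11907 rose, and among the 352 higher genes 30 fell (8.52%) and 1 rose, where 0.613% fell. The median difference was 0.17 for the lower genes, -0.29 for the higher genes and 0.00 for the rest. In both lines alike, 52.6% of the lower genes were higher in sh4 and 66.8% of the higher genes were lower. Among the genes in neither class, 30.9% were higher in both lines and 32.8% lower in both. Across the 11907 genes, the mean differences of the 2 comparisons correlated with a Pearson r of -0.346, a description across genes that are not independent.

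**Figure D5:**
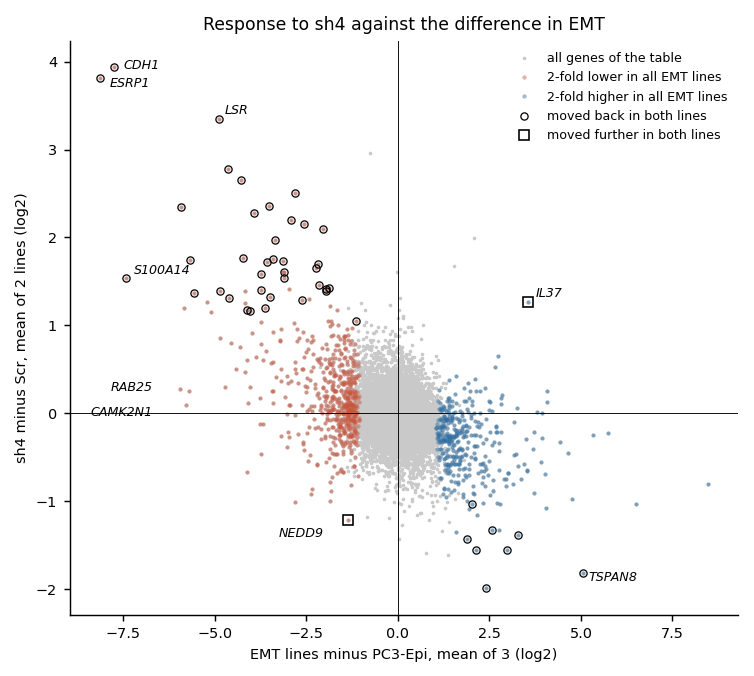
Mean log2 difference of the 3 EMT lines against PC3-Epi (x axis) and mean log2 difference sh4 minus Scr (y axis) for 11907 genes; orange and blue mark genes 2-fold lower or higher in all EMT lines, circles those that moved back 2-fold in both sh4 comparisons and squares those that moved further. CDH1 and ESRP1 lie at the upper left, S100A14 lower down, and RAB25 and CAMK2N1 near 0 on the y axis.

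Genes that had fallen deepest answered very differently from one another. In all, 56 genes were 8-fold or more lower in all 3 EMT lines. Their sh4 differences had a median of 0.91 and ranged from -0.67 to 3.94; 26 rose, 21 were at least 2-fold up in each line and 13 stayed within 1.5-fold. The difference of CDH3 was 2.78 for sh4 and -4.63 for the EMT lines against PC3-Epi, and that of TMEM30B was 1.39 and -4.87, with each kind of difference on its own scale. At the other end, IGFBP2, a binding protein of insulin-like growth factors, was -0.67 with a loss of -4.12 in EMT (adjusted p = 0.0544). It went from 5.88 to 5.28 and from 6.34 to 5.61, near background, so a further fall cannot be read from it. SLITRK6 (-0.46), the tyrosine kinase SYK (-0.12), the guanylate cyclase subunit GUCY1A1 (-0.12), CAMK2N1 (0.09), the lipid phosphatase INPP4B (0.12), TMEM125 (0.12) and the cystatin CST6 (0.18) did not pass either. RAB25 (0.28), S100A9 (0.26) and OVOL1 (0.37) were among the genes with losses over 3 and small differences on the arrays. They too read near background (5.06 to 6.64), so the size of their response is poorly measured. For OVOL1 the study's qPCR showed a strong rise on ZEB1 silencing.

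The 8 genes that had risen in EMT and moved back were SPARC (-1.99), TSPAN8 (-1.81), ANXA10, C5, the adaptor SH2D1B (-1.43 ± 0.12), the antisense RNA SSTR5-AS1 (-1.38 ± 0.23), ITGA1 and HPGD. SPARC did not pass the test, and antisense transcripts may share signal with the gene they overlap. The 2 genes that moved further ran against the rest. IL37, an anti-inflammatory cytokine of the interleukin 1 family, was 3.55 above PC3-Epi in EMT and rose again, from 8.67 to 10.16 and from 8.46 to 9.51 (1.27 ± 0.14), with its other probe set at 1.20. NEDD9, a scaffold of focal adhesions, was 1.36 below PC3-Epi and fell from 8.37 to 7.22 and from 7.72 to 6.46 (-1.21 ± 0.13), but its 4 other probe sets stood between -0.43 and 0.45.

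Of the 196 genes that passed, 78 had 1 probe set and 118 had several. The latter had 235 further probe sets, of which 175 differed in the same direction as the gene in both lines. Among the 87 that reached log2 7 on a transduced array, 83 did. At least 1 Scr array lay under the highest bacterial control in 20 of the 46 genes that were 2-fold higher in both lines, and at least 1 sh4 array in 9 of the 22 that were lower, so these sizes are measured against background. The samples are cultures read in bulk, in which fewer cells that express a gene and less RNA per cell cannot be told apart.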

How the data were processed

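Total RNA of each sample was measured on 1 Affymetrix oligonucleotide array. The deposited values are log2 expression made by the authors by RMA in the affy package, per the submitters' processing notes (versions not given in the sources used here), and were used without change. Probe sets with 1 gene symbol in the platform annotation were kept (41091 of 54675), and for each gene the brightest probe set (mean of 8 arrays) was taken. Gene names were updated by Entrez number. Genes with at least 1 of the 4 transduced arrays at log2 5 or above were tested (16661).

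Differences were fitted in R 4.3.3 with limma 3.58.1 (lmFit and eBayes, two-sided) on 6 arrays (both lines, untransduced and transduced), by group (EMT, Scr, sh4) with the line as a block, and p-values were adjusted by Benjamini-Hochberg over all genes tested, with a threshold of 0.05. The replicate numbers of the labels are the numbers of the cell lines, so they pair the arrays; the deviation of line 1 from line 14 correlated with r = 0.48 between Scr and sh4. Errors are standard errors of this fit. Precision is limited by how few arrays there are, and the untransduced arrays enter its error although the 2 sets had been scaled apart.

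A further 2-fold rule had to hold in both lines. Genes 2-fold lower or higher in all 3 EMT lines were classed as moved back or further (2-fold in both lines), stayed (under 1.5-fold in both) or other. The 33 gene lists are described by counts and medians. Members and lists were chosen with earlier results of these data known. The lists are partial, and EFEMP1, NPNT and CLDN11 were named because they passed outside them. Named genes are ZEB1, list members (up to 6 per list by size, and those that show how a list divides), the 20 largest rises and falls that passed both rules, the 8 most moved back, the genes moved further and the 8 lowest sh4 differences among the deepest losses; FA2H, KDF1, PTAFR, LCK, TCN1, CSGALNACT1, PLEKHH2 and the genes named in the closing observations were chosen after their values were seen. Promoter windows and gene names came from RefSeq tables (GRCh38.p14). The script was checked on simulated data. Alternatives comprised filters, probe set rules, normalizations, models and leaving out each array.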

Additional observations from a re-analysis of the deposited data

Results flagged for a closer look

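CLDN1 differed by -0.60 in PC3-EMT1 and by 1.12 in PC3-EMT14, and OAS1 by -1.49 and 0.61, so that each moved in opposite directions in the 2 lines. The interferon-stimulated list had medians of -0.73 and 0.24, and the list of unfolded protein and amino acid stress genes had medians of 0.28 in PC3-EMT1 and -0.27 in PC3-EMT14. Each line has 1 array of either kind, and these differences between lines were not tested. Among 8364 probe sets with several gene symbols or none that passed the filter, which were outside the comparison by gene, 14 differed at least 2-fold in each line, 7 of them up in sh4 and 7 down.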

How the results depend on the processing

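The 196 calls depend on the error model. Those tested (191 to 196) kept their direction under the alternative normalizations, the mean of probe sets and each left-out Scr or sh4 array. Filters, error models and leaving out PC3-EMT1 or PC3-EMT14 leave each difference unchanged, so direction could not change there. Single probe sets were not part of this count, and 175 of 235 further sets went the same way in both lines. The count was 0 with the 4 transduced arrays alone, and leaving out PC3-EMT1 or PC3-EMT14 amounts to that same fit. The pairing by line matters: without the replicate block 12 genes passed (10 higher, 2 lower), and with the line as a random block 24 did (19 and 5). Leaving out single arrays gave 0 to 649 calls (0 to 371 higher, 0 to 278 lower): 0 without PC3-EMT1 or PC3-EMT14, 42 without PC3-EMT14-sh4 and 649 without PC3-EMT1-Scr. The genes that fell numbered 151 after median centring, where 47.9% of calls were higher against 58.7% in the values reported, and 126 with a mean-variance trend. The mean of probe sets kept 119 of 191 calls. A filter at log2 6, chosen after seeing the data, kept 189 of 189.

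The 2-fold counts (46 and 22) were 159 and 161 at 1.5-fold, 16 and 2 at 3-fold, 29 and 11 for the mean of probe sets, 38 lower when probe sets were counted singly and 10 lower with 32 added on the linear scale. The numbers of genes classed as lower or higher in EMT (572 and 352) also changed with the setting. Both were larger at 1.5-fold. Both were smaller at 3-fold, for the mean of probe sets, after quantile normalization and with 32 added. The counts under these settings therefore have different totals, and a smaller count is not by itself a smaller share. For genes lower in EMT, those moved back, moved further and stayed numbered 38, 1 and 350. They were 97, 14 and 1051 at 1.5-fold, 14, 0 and 93 at 3-fold, and 22, 0 and 232 for the mean of probe sets. Those that stayed were 208 after quantile normalization of 8 arrays and 201 with 32 added, which left 0 moved further. For genes higher in EMT (8, 1, 211) they were 65, 4 and 802 at 1.5-fold, 2, 0 and 69 at 3-fold, and 4, 0 and 125 with 32 added, and 4 and 0 were moved back and further for the mean of probe sets. With 1 line in place of both, 79 lower genes moved back and 7 further in PC3-EMT14, 48 and 5 in PC3-EMT1, and 36 and 24 higher genes moved back.

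Of 158 named genes (EFEMP1, NPNT and CLDN11 not counted), 74 of which passed, a reversed sign was seen only in genes that did not pass. Of 2977 values of these genes under the alternatives, 2405 kept their direction and side of the threshold, 445 lost the call, 89 gained it and 38 changed sign. By the mean of probe sets CLDN4 stood at 0.11, CTNNB1 at -0.06, KRT19 at -0.10, SYK at 0.10, TGFBR2 at -0.06 and VCL at -0.16. By median centring CSF1R stood at -0.01, SCRIB at -0.02 and VCL at -0.00. By loess CSF1R stood at -0.02 and KLF5 at 0.00, and by quantile normalization KLF5 stood at 0.01. Leaving out an array gave ranges across 0 for CAMK2N1 (-0.07 to 0.25), CD14 (-0.34 to 0.14), CLDN1 (-0.48 to 1.01), CLDN4 (-0.17 to 0.06), CSF1R (-0.10 to 0.14), GUCY1A1 (-0.27 to 0.03), IL1B (-0.18 to 0.18), INPP4B (-0.44 to 0.67), KLF5 (-0.33 to 0.30), KRT19 (-0.13 to 0.19), MX1 (-1.35 to 0.25), OAS1 (-1.54 to 0.66), REG4 (-3.01 to 0.37), SCRIB (-0.10 to 0.10), SNAI2 (-0.04 to 0.44), TMEM125 (-0.05 to 0.30) and VCL (-0.03 to 0.07). The cause of these changes was not tested. Signal over background limits genes whose levels lie under 6.00.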

Other observations

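The genes of this section were chosen after their values had been seen. NR2F1, an orphan nuclear receptor, went from 11.11 to 9.72 (PC3-EMT1) and from 11.03 to 10.05 (PC3-EMT14), and fell (-1.18 ± 0.14, adjusted p = 0.0213 in limma). The receptor tyrosine kinases KDR (-1.08 ± 0.17), EPHA4 (-0.95 ± 0.12) and EPHA5 (-1.02 ± 0.16) fell, as did the type I receptor ACVR1 (-0.88 ± 0.12). EPHA5 rested on 1 of 3 probe sets, with a mean of -0.33. Thromboxane synthase (TBXAS1), which acts on a product of arachidonic acid, went from 9.10 to 8.20 and from 9.32 to 8.35 (-0.93 ± 0.11), and phospholipase D1 (PLD1) fell by 0.81 ± 0.12 on the log2 scale.

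HSD17B2, which inactivates sex steroids, fell from 9.57 to 8.73 and from 10.30 to 9.08 (-1.03 ± 0.13). HSD11B1, which regenerates cortisol, rose from 5.78 to 6.53 and from 6.04 to 6.89 (0.80 ± 0.12), near background, and the vitamin D receptor VDR rose from 7.66 to 8.64 and from 8.11 to 9.11 (0.99 ± 0.14). ILDR1, a relative of LSR at tricellular contacts, rose by 1.41 ± 0.22 from Scr levels of 5.34 and 5.07, and ladinin (LAD1), a basement membrane-associated protein, rose from 7.10 to 8.02 and from 7.32 to 9.18 (1.39 ± 0.21).

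Some genes differed between the sh4 and Scr arrays of 1 line and not of the other, and this was not tested because each line has 1 pair of arrays. REG4, a secreted lectin of the gut, went down from 8.75 to 5.96 in PC3-EMT1 while it read 5.28 and 5.44 in the other line, with its other probe sets in the same direction in PC3-EMT1. On the untransduced arrays, which have a scale of their own, REG4 read 7.37 in PC3-EMT1 and 7.70 in PC3-EMT14. Both transduced PC3-EMT14 arrays were thus low for a gene that the untransduced line expressed. SPP1 (osteopontin) went from 7.32 to 4.23 in PC3-EMT14 and from 4.19 to 4.03 in PC3-EMT1, but its other probe set stood at 0.24 in PC3-EMT14. The untransduced arrays read 2.59 in PC3-EMT1 and 2.56 in PC3-EMT14, so the SPP1 difference rests on the high PC3-EMT14-Scr array.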
